A study of Mus musculus with 2 samples.

Results

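The cells described here are the rare tumor cells with a Dll1 transcript in a mouse mammary tumor labelled Dll1-. Dll1 sits in the cell membrane and is one of the ligands that Notch receptors bind. When it meets a receptor on a neighbouring cell, the receptor is cut and its inner part enters the nucleus, where with Rbpj it turns on genes such as those of the Hes and Hey families. In the mammary gland Dll1 is known from basal cells, the outer layer of the epithelium, and Notch signals from basal to luminal cells and to macrophages have been described there.

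The members were chosen by their UMIs (unique molecular identifiers, each standing for 1 captured transcript) of Dll1 and of 6 gate genes. They were barcodes of the Dll1- library with 1000 or more UMIs, 500 or more genes and no more than 20% of UMIs from mitochondrial genes. They also had at least 1 Epcam UMI, at least 5 UMIs of Krt8 and Krt18 together, at most 1 Krt5 UMI and no Cdh5 or Pdgfra UMI. Epcam, Krt8 and Krt18 are epithelial and luminal genes, and Krt5, Cdh5 and Pdgfra mark basal epithelium, endothelium and fibroblasts. Of 9132 cells that met these limits, called tumor-gate cells below, 346 had at least 1 Dll1 UMI. They are called Dll1-detected cells, and the other 8786 are called Dll1-undetected cells. The series held 21702 barcodes that passed the quality limits, 11121 of them in the Dll1- library and 10581 in the Dll1+ library.

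The study profiled 1 Dll1- and 1 Dll1+ mouse mammary tumor, both untreated controls, by droplet single-cell RNA sequencing of live cells sorted as CD45-. Cells had been stained for CD31, CD45 and Ter119, surface proteins of endothelium, leukocytes and erythroid cells. No source used here gives the strain, the age, the tumor model or how a tumor came to be classed as Dll1- or Dll1+. Each group is 1 tumor and 1 library, so no comparison below has a replicate check or a test, and every interval covers counting error only. Fewer transcripts per cell and fewer captured transcripts cannot be told apart where a single cell has no Dll1 UMI.

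The Dll1- library held 135960457 UMIs in 13097 barcodes (median 8939), and the Dll1+ library held 117230907 UMIs in 13819 barcodes (median 5853). The 2 libraries shared 109 cell barcodes, and 2 of the 346 Dll1-detected cells of the Dll1- tumor carried such a barcode. Both of these had 1 Dll1 UMI, and neither of their barcodes met the tumor-gate limits in the Dll1+ library. Doublets were kept, because an automatic doublet call marked 1 barcode in each library and had not worked. High doublet scores, by a rank cut used as an alternative, were held by 11.6% of the Dll1-detected cells and 10.9% of depth-matched Dll1-undetected cells.

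Dll1 chose the members, so its own values are a description. The 346 cells held 458 Dll1 UMIs, and they made up 3.79% of the tumor-gate cells of the Dll1- tumor (exact binomial 95% interval 3.41 to 4.20). Of 7741 tumor-gate cells of the Dll1+ tumor, 2318 had a Dll1 UMI, a share of 29.9%. Over all tumor-gate cells Dll1 stood at 3.88 CPM in the Dll1- tumor (the field's usual scaling of a gene's UMIs by the total UMIs, exact Poisson interval 3.54 to 4.26) and at 50.1 CPM in the Dll1+ tumor. Thinned to 2000 UMIs per cell, the share was 0.767% in the Dll1- tumor, where 141 cells were too shallow to enter, and 10.2% in the Dll1+ tumor, where 295 were. The Dll1- tumor thus had a Dll1-detected fraction that was low at matched depth as well as at full depth.

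Most members rested on a single molecule. Of the 346 cells, 275 had 1 Dll1 UMI, 52 had 2, 10 had 3 and 9 had 4 or more. The 71 cells with at least 2 were 20.5% of the members, whereas 965 cells, or 41.6%, of the Dll1-detected cells of the Dll1+ tumor had at least 2. The cells just inside the limit had 1 Dll1 UMI in a median of 14357 UMIs, and those just outside had none. Epcam, Krt8, Krt18 and Krt5 chose the members too, so their values are likewise a description. The members' Krt8 and Krt18 UMIs ran from the limit of 5 to 680 with a median of 108.5, and 3 members had fewer than 10. At the other limits, 2 members had only 1 Epcam UMI, and 9 had the 1 Krt5 UMI that the rule allows. Outside the tumor gate, 185 more barcodes of the Dll1- library passed the quality limits and had a Dll1 UMI. Of these, 141 had 2 or more Krt5 UMIs.

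**Figure D1:**
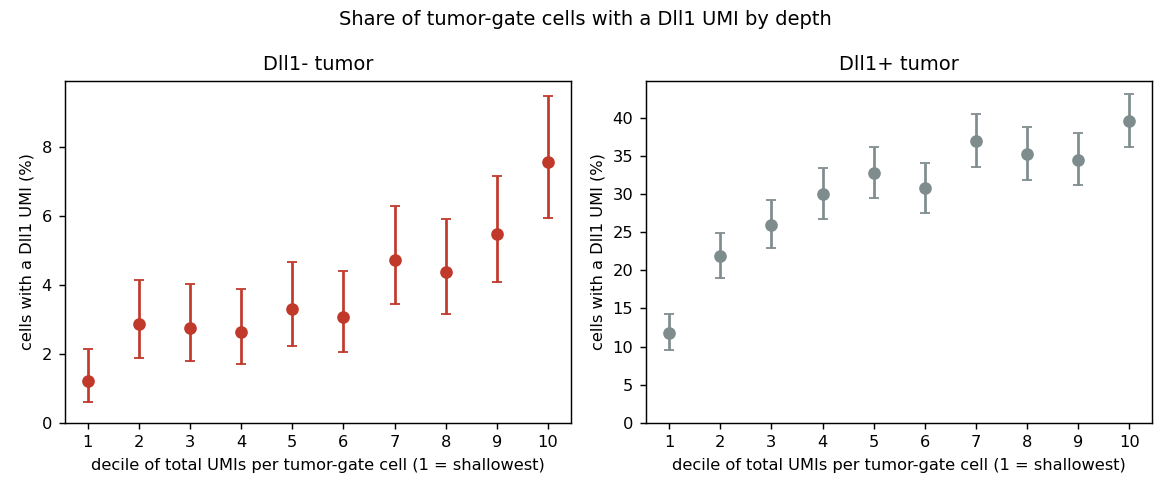
Share of tumor-gate cells with a Dll1 UMI (%, exact binomial 95% interval) in each decile of total UMIs, in the Dll1- tumor (left) and the Dll1+ tumor (right, on its own scale). The share in the Dll1- tumor was 1.20% in the shallowest decile and 7.55% in the deepest.

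The share of Dll1-detected cells went with depth. It was 1.20% in the Dll1- tumor among cells of 1015 to 4914 UMIs and 7.55% among cells of 22619 to 82327 UMIs. The Dll1 level in CPM had no such gradient, lying between 3.26 CPM in the deepest decile and 7.25 CPM in the second. Members had a median of 14337 UMIs, against 11137 UMIs in all Dll1-undetected cells. The comparisons of genes below were therefore made decile by decile of total UMIs, whereas shares by gate and by cluster were not, and after matching the Dll1-undetected cells had a median of 14198 UMIs. Genes per cell were then alike, at a median of 3395 in Dll1-detected and 3392 in matched Dll1-undetected cells, as were mitochondrial UMIs at 3.29% and 3.44%.

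Other cell types of the same tumor set the background for a few Dll1 UMIs. Fibroblast-gate cells of the Dll1- tumor had a Dll1 UMI in 0 of 353 cells, which allows a share of up to 0.850%, at a median depth of 6920 UMIs, against 11244 in the tumor gate. The 0 UMIs seen there allow a level of up to 1.17 CPM, under the 3.88 CPM of the tumor gate. Pericyte-gate cells had 0 of 119, which allows up to 2.52%, or 4.09 CPM. Krt5-gate cells had Dll1 in 123 of 261 cells (47.1%) at 77.5 CPM, against 83.3 CPM in the Krt5-gate cells of the Dll1+ tumor. Endothelial-gate cells had it in 23 of 221 cells (10.4%) at 25.6 CPM. Thinned to 2000 UMIs, the tumor-gate share of 0.767% lay under the limit that the fibroblasts' zero allows, so at that depth the share was not distinguishable from background, whereas the level was above it. Of 198 fibroblast-gate cells of the Dll1+ tumor, 5 (2.53%) had a Dll1 UMI, at 2.52 CPM and a median of 9680.5 UMIs.

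**Figure D2:**
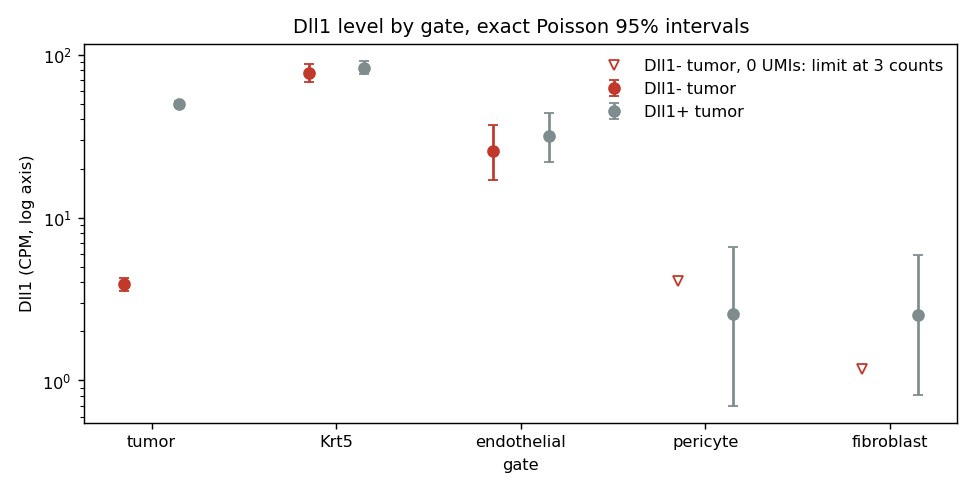
Dll1 level (CPM, log axis) by gate in the Dll1- tumor and the Dll1+ tumor. Bars are exact Poisson 95% intervals, and open triangles mark the limit that 3 counts set where a gate had 0 Dll1 UMIs. Tumor-gate cells stood at 3.88 CPM in the Dll1- tumor and 50.1 CPM in the Dll1+ tumor, whereas Krt5-gate cells stood at 77.5 and 83.3 CPM.

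Markers of these other cells were set beside the members. The Krt5-cell markers summed to 1591 UMIs in the 346 members, against 1165 expected from matched Dll1-undetected cells, with 0 to 313 per member and a median of 2. Krt14 alone gave 1091 of them. Krt5-gate cells carried 88.0 such marker UMIs per Dll1 UMI, so the members' 458 Dll1 UMIs would come with 40284 if all had that source. Endothelial markers summed to 58 UMIs, against 59.8 expected, and to 140917 if all Dll1 had come with endothelial RNA. The rule had already left out barcodes with 2 or more Krt5 UMIs or a Cdh5 or Pdgfra UMI, which holds such sums down beforehand. Whether part of the members' Dll1 came with RNA of Krt5-gate or endothelial cells was not tested. Pericyte markers summed to 119 against 182 expected, leukocyte markers to 19 against 81.2, and erythroid markers to 2 against 1.06. Fibroblast markers summed to 1263 against 828 expected, and 5 members held 87.8% of them. Genes nearly restricted to the tumor cells of the Dll1+ tumor (10 genes, among them Pi15, Cck and Tlx1) summed to 34 against 31.4 expected. Had all 458 Dll1 UMIs come with RNA of tumor-gate cells of the Dll1+ tumor, 6778 would be there. Whether part of the members' Dll1 came with such RNA was not tested. Of the marker lists, these 10 genes had 4 members at 0 in the Dll1-detected cells, the erythroid list 4 of 6, the leukocyte list 3 of 8, and the endothelial and pericyte lists 1 each.

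Luminal and epithelial genes that the rule did not use were compared between Dll1-detected and Dll1-undetected cells. Both sets passed the same limits, so this does not check whether the members are tumor cells. Cdh1, the epithelial cadherin, had 199 CPM in Dll1-detected cells and 183 CPM in matched Dll1-undetected cells. Cldn3, a tight junction claudin, had 1205 CPM in Dll1-detected and 1154 CPM in Dll1-undetected cells. The luminal keratin Krt7 had the highest ratio of its list, with 472 CPM in Dll1-detected and 353 CPM in Dll1-undetected cells (log2 ratio 0.42), and the epithelial transcription factor Ovol1 the lowest at -0.09. Of the 9 luminal genes outside the rule, 0 differed by 1.5-fold, and their median log2 ratio was 0.078. Across all measured genes (defined below) 1.73% were 1.5-fold or more higher and 1.13% lower, so 0 of 9 lies near those shares.

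Across all genes, Dll1-detected and Dll1-undetected cells of the Dll1- tumor were alike for most. A gene was called measured at 5 CPM or more over all tumor-gate cells, and its log2 ratio was taken on the scale of CPM + 1. Of 9242 measured genes, 160 were 1.5-fold or more higher in the Dll1-detected cells (1.73%) and 104 were 1.5-fold or more lower (1.13%), with a median log2 ratio of 0.01. The same comparison inside the Dll1+ tumor shares no cells with it. There 259 of 9941 genes were higher (2.61%) and 164 were lower (1.65%).

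Genes induced by interferon were higher in the Dll1-detected cells. Interferons are cytokines released by infected or stressed cells that turn on a common set of antiviral genes in the cells they reach. Of 13 measured genes of the interferon-stimulated list, 8 were 1.5-fold or more higher in Dll1-detected cells of the Dll1- tumor and 0 lower, against 1.73% of all measured genes higher. All 13 log2 ratios were above 0, with a median of 0.61. Of the same 13 in the Dll1+ tumor, 10 were higher and 0 lower, with a median of 0.69. Over 17 alternatives of the processing the median in the Dll1+ tumor ran between 0.20 and 0.79.

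Ifit2, which binds viral RNA, had 62.9 CPM in Dll1-detected cells and 13.6 CPM in Dll1-undetected cells of the Dll1- tumor, a log2 ratio of 2.13 (95% interval 2.04 to 2.38, exact and without the added 1 CPM). It was found in 17.1% of the Dll1-detected cells and in 6.46% of the matched ones. Ifit3, of the same family, had 357 CPM in Dll1-detected and 133 CPM in Dll1-undetected cells, a log2 ratio of 1.42. Its near-identical copy Ifit3b had a log2 ratio of 1.29, and since reads can be split between the copies both are uncertain. Rsad2, the antiviral enzyme viperin, had 807 CPM in Dll1-detected and 367 CPM in Dll1-undetected cells (log2 ratio 1.13). The list's lowest members were Bst2, a virus-tethering membrane protein, at 0.20 and Ifi27l2a at 0.19.

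The shift was seen in the spread of whole cells. Per 10000 UMIs, the interferon list took a median of 54.6 UMIs in Dll1-detected cells and 38.9 UMIs in matched Dll1-undetected cells. At the 90th percentile the values were 150 and 86.6. The ranges overlapped over nearly their whole length, running to 491 in Dll1-detected and 516 in Dll1-undetected cells. Members with 1 Dll1 UMI had a list median of 0.61 and those with 2 or more one of 0.70. With cells matched on their cluster at the finer of the resolutions described below as well as on depth, an alternative added after the data were seen, the list median was 0.46.

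**Figure D3:**
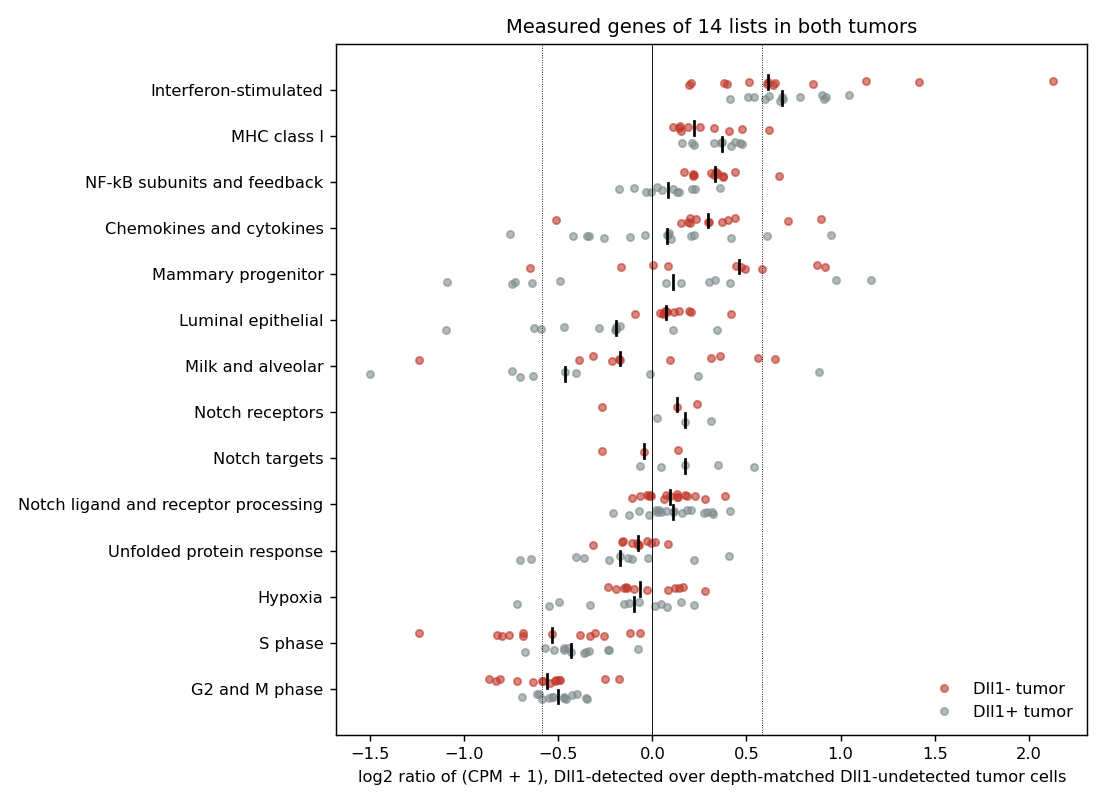
Log2 ratios of (CPM + 1), Dll1-detected over depth-matched Dll1-undetected tumor-gate cells, for the measured genes of 14 lists in the Dll1- tumor and the Dll1+ tumor. Points are genes, black bars are list medians and dotted lines mark 1.5-fold. The interferon list has medians of 0.61 and 0.69, and the S phase list of -0.53 and -0.43.

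Promoter windows of Dll1 and of the interferon genes Ifit2, Cmpk2, Ifit3 and Rsad2 are shown because these genes were higher in the cells with Dll1. Each runs from 250 bases before to 50 after a gene start, from RefSeq on GRCm38.p6 (mm10), and capitals mark matches to the core of the interferon-stimulated response element, which is GAAA, any 2 bases and GAAA, searched on both strands. Dll1 (ENSMUSG00000014773, protein coding) lies on chr17:15367354-15376872 of mm10, on the minus strand, and has 2 listed starts.
Dll1, chr17:15375774-15376073, minus strand: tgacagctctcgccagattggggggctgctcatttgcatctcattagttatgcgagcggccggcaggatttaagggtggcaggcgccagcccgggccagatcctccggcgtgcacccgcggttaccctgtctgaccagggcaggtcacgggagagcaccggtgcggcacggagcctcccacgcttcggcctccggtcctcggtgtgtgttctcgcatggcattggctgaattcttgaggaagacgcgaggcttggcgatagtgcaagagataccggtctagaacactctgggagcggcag
Dll1, chr17:15376883-15377182, minus strand: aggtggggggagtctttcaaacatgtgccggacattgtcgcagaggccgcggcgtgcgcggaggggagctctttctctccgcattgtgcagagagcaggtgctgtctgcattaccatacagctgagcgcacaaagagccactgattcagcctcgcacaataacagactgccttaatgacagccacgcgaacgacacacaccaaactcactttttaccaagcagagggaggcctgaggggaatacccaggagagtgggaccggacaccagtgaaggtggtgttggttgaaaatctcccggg
Ifit2, chr19:34550444-34550743, plus strand: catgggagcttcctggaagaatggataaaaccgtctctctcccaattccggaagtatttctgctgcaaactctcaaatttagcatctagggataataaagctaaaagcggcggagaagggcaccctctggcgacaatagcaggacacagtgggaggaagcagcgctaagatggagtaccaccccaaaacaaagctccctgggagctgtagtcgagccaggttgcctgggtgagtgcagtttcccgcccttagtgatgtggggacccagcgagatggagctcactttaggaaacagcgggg
Ifit2, chr19:34550838-34551137, plus strand: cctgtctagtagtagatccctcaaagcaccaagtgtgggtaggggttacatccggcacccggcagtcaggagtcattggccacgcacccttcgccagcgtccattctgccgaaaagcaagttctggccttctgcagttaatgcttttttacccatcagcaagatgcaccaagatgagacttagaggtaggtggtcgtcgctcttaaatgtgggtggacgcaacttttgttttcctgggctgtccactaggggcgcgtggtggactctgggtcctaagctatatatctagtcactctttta
Cmpk2, chr12:26468965-26469264, plus strand: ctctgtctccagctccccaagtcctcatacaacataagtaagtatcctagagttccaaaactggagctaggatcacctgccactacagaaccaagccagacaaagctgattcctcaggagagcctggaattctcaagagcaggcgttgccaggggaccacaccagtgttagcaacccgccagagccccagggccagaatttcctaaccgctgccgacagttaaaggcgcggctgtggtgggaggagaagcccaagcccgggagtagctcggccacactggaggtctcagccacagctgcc
Ifit3, chr19:34583279-34583578, plus strand: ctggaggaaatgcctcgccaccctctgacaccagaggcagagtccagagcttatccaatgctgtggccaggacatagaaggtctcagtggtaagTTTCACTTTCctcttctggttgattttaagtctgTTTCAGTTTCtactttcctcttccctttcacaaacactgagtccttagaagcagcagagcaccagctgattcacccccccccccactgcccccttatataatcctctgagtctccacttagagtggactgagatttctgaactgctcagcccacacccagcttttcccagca
Rsad2, chr12:26456403-26456702, minus strand: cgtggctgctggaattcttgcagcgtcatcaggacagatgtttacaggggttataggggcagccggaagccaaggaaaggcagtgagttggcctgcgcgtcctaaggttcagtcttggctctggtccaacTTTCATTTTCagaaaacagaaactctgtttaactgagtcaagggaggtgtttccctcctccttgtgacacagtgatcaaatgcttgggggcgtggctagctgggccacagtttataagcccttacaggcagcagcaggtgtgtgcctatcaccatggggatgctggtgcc
Of 32851 such windows of 27025 genes, 3.44% held the motif. Of the interferon list, 10 genes matched the table with 11 windows, and 6 windows held it, those of Bst2, Ifih1, Ifit1, Ifit3, Isg15 and Rsad2. The Ifit3 window held 2 matches and the Rsad2 window 1. The Dll1, Ifit2 and Cmpk2 windows held none, which says only that these letters are absent from the windows.

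Other high genes named by rule were the 12 with the largest ratios among genes of 20 CPM or more. Beside Ifit3, Ifit3b and Rsad2, several more are known interferon targets. Cmpk2, a mitochondrial nucleotide kinase, had 113 CPM in Dll1-detected and 39.9 CPM in Dll1-undetected cells (log2 ratio 1.48; Dll1+ tumor 1.07). Gbp2, an interferon-induced GTPase, had 172 CPM and 76.7 CPM (1.16). AW112010, an interferon-responsive transcript, had 75.6 CPM in Dll1-detected and 19.0 CPM in Dll1-undetected cells (1.94), but 5 cells held 62.7% of its UMIs. Csprs had 44.4 CPM in Dll1-detected and 20.6 CPM in Dll1-undetected cells (1.07), and it too is uncertain because it has near-identical copies. Lipa, the lysosomal acid lipase, was spread over many cells, with 88.3 CPM in Dll1-detected and 40.5 CPM in Dll1-undetected cells (1.11) and UMIs in 52.6% and 36.0% of them. Of these 12 genes, 7 were 1.5-fold or more higher in Dll1-detected cells of the Dll1+ tumor and 0 were lower, against 2.61% of all genes measured there higher.

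Among the secreted and matrix genes of the 12, the collagens and Wfdc17 rested on few cells. Wfdc2, a secreted protease-inhibitor-like protein, had 105 CPM in Dll1-detected and 44.8 CPM in Dll1-undetected cells (1.22). Its ratio was 0.16 in members with 2 or more Dll1 UMIs and 0.07 in the Dll1+ tumor. Col1a1 and Col1a2, the chains of type I collagen, had log2 ratios of 1.15 and 1.21. A single cell held 61.2% of the members' Col1a1 UMIs and 63.3% of their Col1a2 UMIs. Members with 2 or more Dll1 UMIs had log2 ratios of -0.43 for Col1a1 and -0.51 for Col1a2. Wfdc17 had a ratio of 1.00, with 77.9% of its UMIs in 5 cells.

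Cell-cycle genes were lower in the Dll1-detected cells at matched depth. Of 13 measured S phase genes 6 were 1.5-fold or more lower and 0 higher in the Dll1- tumor, against 1.13% of all measured genes lower, with a median of -0.53. Of 14 measured G2 and M phase genes 6 were lower and 0 higher, with a median of -0.56. Rrm2, a subunit of ribonucleotide reductase, had 12.7 CPM in Dll1-detected and 31.4 CPM in Dll1-undetected cells (log2 ratio -1.24, and -0.30 with cells thinned to 2000 UMIs). Top2a, which untangles DNA before division, had 31.9 CPM in Dll1-detected and 57.5 CPM in Dll1-undetected cells (-0.83), and Cdk1, the mitotic kinase, 31.2 CPM and 52.0 CPM (-0.72). The Dll1+ tumor had medians of -0.43 (S phase) and -0.50 (G2 and M phase).

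The G2 and M phase direction turned in some alternatives. The list's median was 0.10 with every cell thinned to 2000 UMIs. In members with 2 or more Dll1 UMIs it was 0.24, and with cells matched on cluster as well as depth it was 0.026. Matching on cluster takes up part of such a difference beforehand, because the dividing cluster described below is itself led by genes of division. Without depth matching the list's median kept its direction at -0.068, and over all 17 alternatives it ran between -0.76 and 0.24. Per 10000 UMIs the list's median was 0 in both sets of cells, and its 90th percentile was 3.24 in Dll1-detected and 10.7 in Dll1-undetected cells. The S phase median stayed below 0 in every alternative run, between -0.62 and -0.12. Dividing cells are deeper, with a median of 20609 UMIs in the dividing cluster described below, so depth moves with these lists.

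Among the 12 lowest named genes, 8 belong to the dividing cell: Rrm2, Top2a, Ccnb1, Hist1h2ae, Spc24, Prc1, Cdca3 and Cdk1. Of the 12, 7 were no longer 1.5-fold lower without depth matching, and likewise 7 with cells thinned to 2000 UMIs, 7 with cells matched on cluster and 7 with 2 or more Dll1 UMIs. Beside the 8 genes of division, 4 of the 12 are not of the cell cycle. Csn2, the milk protein beta-casein, had 101 CPM in Dll1-detected and 241 CPM in Dll1-undetected cells (log2 ratio -1.24), with 70.8% of the members' UMIs in 5 cells. Its ratio was -0.039 with cells thinned to 2000 UMIs and -0.47 with all cells weighted alike. Saa3, an acute phase protein, had 41.3 CPM in Dll1-detected and 74.6 CPM in Dll1-undetected cells (-0.84). Hmox1, the heme-degrading oxygenase, had 48.6 CPM and 82.0 CPM (-0.74). Mgp, a matrix protein that blocks calcification, had a ratio of -0.90, which turned to 0.64 without the collagen-led cluster. Of the 12, 4 were 1.5-fold or more lower and 0 higher in the Dll1+ tumor, against 1.65% of all genes measured there lower.

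Most Notch genes of the cells were low or differed little. Among the other ligands, Jag1 was the only one measured, with 18.8 CPM in Dll1-detected and 9.69 CPM in Dll1-undetected cells (log2 ratio 0.89, interval 0.66 to 1.24). It was found in 12.1% of the Dll1-detected and 8.73% of the matched cells, and 5 cells held 38.9% of its UMIs. Its ratio was 0.14 with cells thinned to 2000 UMIs, 0.34 without cells that had 3 or more UMIs of other cell types' markers and 0.41 with all cells weighted alike. In the Dll1+ tumor Jag1 was below the minimum, at 2.41 CPM in Dll1-detected and 3.75 CPM in Dll1-undetected cells. Jag2 had 6 UMIs in the 346 cells, Dll4 had 2, Dll3 and Dlk1 had 1 each, and Dlk2 and Dner had 0.

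Of the receptors, Notch1 had 68.5 CPM in Dll1-detected and 57.9 CPM in Dll1-undetected cells (log2 ratio 0.24, interval 0.09 to 0.39). Notch2 had 12.4 CPM in Dll1-detected and 11.2 CPM in Dll1-undetected cells (0.13), and Notch3 7.14 CPM and 8.80 CPM (-0.27). The sugar-adding enzymes Pofut1, Rfng and Poglut1 had ratios of 0.17, 0.08 and -0.02. Of all measured genes 1.73% were 1.5-fold or more higher and 1.13% lower. Near those shares, none of 17 measured genes that process ligand or receptor, or carry the signal to DNA, passed 1.5-fold. Their median was 0.09, with Psen2, a catalytic subunit of gamma-secretase, at 0.39 and Adam10, the protease that sheds the receptor, at 0.28. Rbpj, the DNA-binding partner of the cut receptor, had 71.9 CPM in Dll1-detected and 63.2 CPM in Dll1-undetected cells (0.18).

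Of the 3 Notch targets that were measured, none passed 1.5-fold, near the shares over all measured genes (1.73% higher and 1.13% lower). Hes1, a repressor turned on by Notch, had 60.8 CPM in Dll1-detected and 55.2 CPM in Dll1-undetected cells of the Dll1- tumor (log2 ratio 0.14), and 187 CPM in Dll1-detected and 147 CPM in Dll1-undetected cells of the Dll1+ tumor (0.35). Hes6 had a ratio of -0.04. Hey1, a second Notch-induced repressor, was below the 5 CPM minimum in the Dll1- tumor and was singled out after its values were seen. It had 52 UMIs in the Dll1-detected cells against 17.8 expected, or 9.06 CPM and 3.09 CPM (log2 ratio 1.30, interval 1.10 to 1.98), and was found in 9.83% of the Dll1-detected and 3.41% of the matched cells. Its ratio was 1.15 in members with 1 Dll1 UMI and 1.76 in those with 2 or more, and 0.54 with a pseudocount of 10 CPM, which is under 1.5-fold. In the Dll1+ tumor it had 18.4 CPM in Dll1-detected and 12.3 CPM in Dll1-undetected cells (0.54).

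Genes of inflammation lay a little above the undetected cells, most by less than 1.5-fold. All 12 NF-kB subunits and feedback genes had ratios above 0, with a median of 0.33, and 1 passed 1.5-fold. That one was Tnfaip2, a TNF-induced gene, with 92.5 CPM in Dll1-detected and 57.6 CPM in Dll1-undetected cells (0.67). Rel, an NF-kB subunit, followed at 0.44, and the inhibitor Nfkbia and the subunit Nfkb1 were lowest at 0.21 and 0.17. The list median was 0.08 in the Dll1+ tumor. Of 13 chemokines and cytokines 2 were higher, Cxcl10 at 0.89 and Ccl7 at 0.72, with 71.6% and 94.3% of the members' UMIs in 5 cells. Of all measured genes 1.73% were higher. Il33, an alarmin, had the lowest ratio at -0.51. All 10 MHC class I genes, which present peptides to cytotoxic T cells, had ratios above 0, with a median of 0.22. Of these only Nlrc5, the activator of the class, passed 1.5-fold at 0.62.

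Mammary lineage genes differed in both directions. Of 10 measured progenitor genes 2 were higher and 1 lower, against 1.73% and 1.13% of all measured genes, with a median of 0.46. Cd14, a co-receptor of bacterial lipopolysaccharide and a luminal progenitor marker, had 108 CPM in Dll1-detected and 57.0 CPM in Dll1-undetected cells (0.92) and was found in 50.6% and 34.8% of them. Aldh1a3, a retinal dehydrogenase, had a ratio of 0.87, with 55.5% of its UMIs in 5 cells. That ratio was 0.00029 without cells of 3 or more UMIs of other cell types' markers, 0.21 with 2 or more Dll1 UMIs and 0.43 with cells thinned to 2000 UMIs. Lgr6, an R-spondin receptor, had a ratio of -0.65. Of 11 milk genes, Trf (transferrin) was higher at 0.65 and Csn2 lower at -1.24, and the median was -0.17. That median was 0.12 in members with 2 or more Dll1 UMIs. Summed per cell, the milk list went the other way, with a median of 138 UMIs per 10000 in Dll1-detected and 109 in matched Dll1-undetected cells. Lalba, the milk protein alpha-lactalbumin, had 1467 CPM in Dll1-detected and 996 CPM in Dll1-undetected cells (0.56).

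Basal and skin genes that were 1.5-fold or more higher were held mostly by few cells. Tagln and Acta2, contractile genes of muscle-like cells, had ratios of 1.35 and 1.29, with 89.0% and 97.9% of the members' UMIs in 5 cells. Krt14, a basal keratin found in 60.7% of the Dll1-detected and 55.9% of the matched cells, had a ratio of 0.55. Krt6a, a keratin of stressed epithelium, had a ratio of 1.48, again with 94.0% of its UMIs in 5 cells, and Krtdap one of -1.31. Of all measured genes 1.73% were 1.5-fold or more higher and 1.13% lower. Near those shares, none of the measured genes of the hypoxia, unfolded protein response, p53, Wnt target or immediate early lists passed 1.5-fold. Their medians were -0.06, -0.08, 0.07, -0.03 and 0.21.

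The tumor-gate cells of the Dll1- tumor were clustered without Dll1, and clusters are called by their leading genes. At the coarser resolution (0.4) 4 clusters were found. The cluster led by Lalba and Wap had Dll1-detected cells at 4.07% of 4810, and the dividing cluster led by Ube2c and Top2a held 5.78% of the members and 11.3% of matched Dll1-undetected cells. A cluster of 115 cells was led by collagen genes, 85.2% of it had high doublet scores, and it held 5 members. Without it, 162 genes were higher and 104 lower.

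At the finer resolution (0.8) 10 clusters were found, and the share of Dll1-detected cells differed between them. It was 9.21% in the cluster led by Ifit1bl1, Cmpk2, Ifit2 and Ifit3b (70 of 760 cells, exact interval 7.25 to 11.5). Dll1 stood there at 10.5 CPM (8.62 to 12.6), against 3.88 CPM over the gate, and thinned to 2000 UMIs the share was 3.03%, against 0.767%. This cluster held 20.2% of the Dll1-detected and 8.66% of matched Dll1-undetected cells. The cluster led by Krt6a and Krt16 followed at 7.07% and 6.16 CPM, and its interval reached down to 4.59 CPM. The lowest shares were 1.70% in the cluster led by Mmp12, Pgf and Lyz2 and 2.04% in that led by Ifnb1 and Ccl4. The dividing cluster had 1.94 CPM (1.31 to 2.76), and 0 of its 698 cells kept a Dll1 UMI after thinning.

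**Figure D4:**
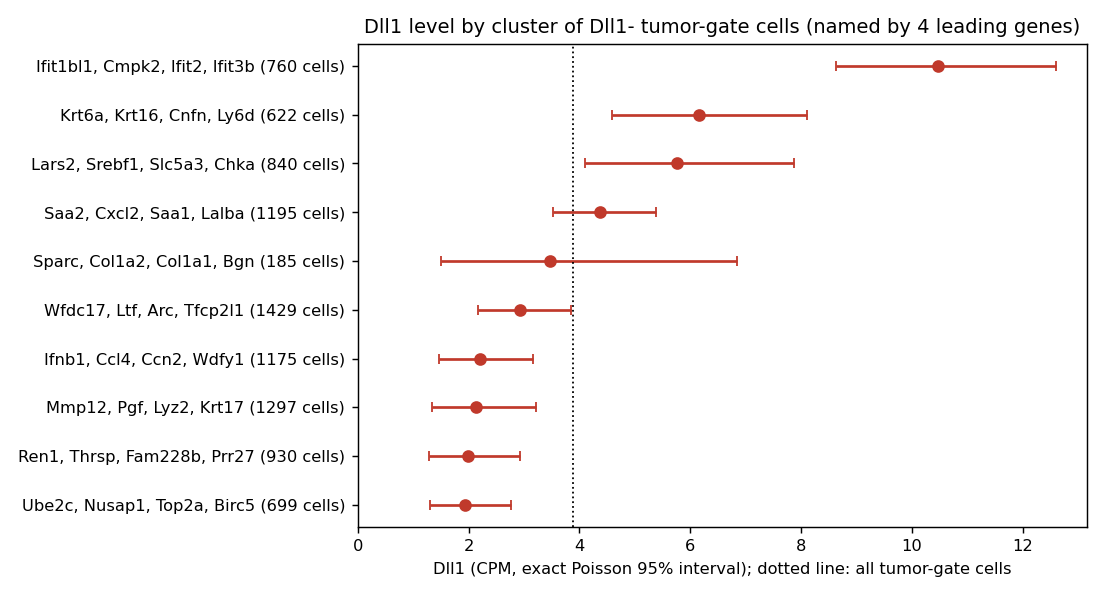
Dll1 level (CPM, exact Poisson 95% interval) in 10 clusters of the tumor-gate cells of the Dll1- tumor, named by their leading genes, made without Dll1. The dotted line is the level over all tumor-gate cells, 3.88 CPM, and the cluster led by Ifit1bl1, Cmpk2, Ifit2 and Ifit3b stands at 10.5 CPM.

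The members with most Dll1 are given one by one. Ranked by Dll1 UMIs, the first cell had 10 Dll1 UMIs among 5983, and the next had 6 among 7902. Of the 7 cells with 5 or more Dll1 UMIs, 5 lay in the interferon-gene-led cluster, 1 in the dividing cluster and 1 in the cluster led by Lars2. The interferon list took 66.9 UMIs per 10000 in the first cell, 65.8 in the next and 217 in the highest of the 7, against a median of 38.9 in matched Dll1-undetected cells. Another had 79.0, and the rest of the 7 lay below that median, at 36.8, 25.4 and 25.4. The dividing cell had 47228 UMIs in all and 183 UMIs of the G2 and M phase list, whereas the other 6 had 0. Krt5-cell markers took 0 to 3 UMIs in each of the 7, and none had a high doublet score.

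The members' pattern was set beside that of the Dll1-detected cells of the Dll1+ tumor. Across 9011 genes measured in both, the log2 ratios of the 2 tumors had a Pearson r of 0.40 and a Spearman rho of 0.38. This is a description across genes, which are not independent replicates and share the depth matching. Of the 62 genes with 20 CPM in both that were higher in the Dll1- tumor, 27 were also higher in the Dll1+ tumor and 1 was lower. Of the 23 such genes that were lower in the Dll1- tumor, 6 were also lower in the Dll1+ tumor and 0 were higher. Of all 5083 genes with 20 CPM in both, 52 were higher and 65 lower in the Dll1+ tumor. A few genes went opposite ways in the 2 tumors, among them Krt6a, Krt79, Aldh1a3 and Fermt1.

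**Figure D5:**
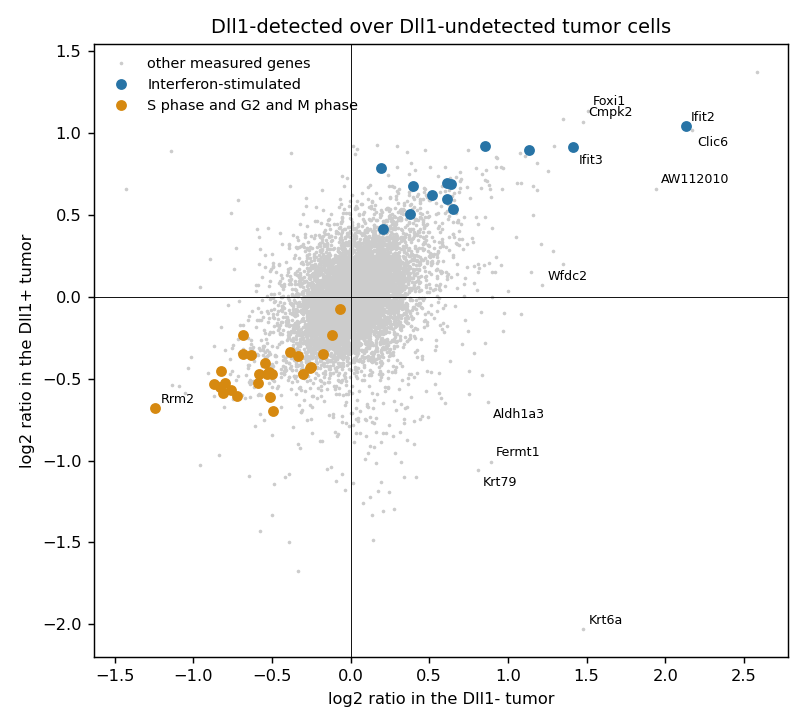
Log2 ratios of Dll1-detected over Dll1-undetected tumor-gate cells in the Dll1- tumor (horizontal) and the Dll1+ tumor (vertical), for 9011 genes measured in both, leaving out Dll1 and the genes of the rule. All 13 interferon-stimulated genes lie above 0 on both axes, and the S phase and G2 and M phase genes lie below 0 on both; Krt6a has 1.48 and -2.03.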

How the data were processed

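Gene-by-barcode UMI counts of the Dll1- and the Dll1+ library were used as deposited. Per the file headers the authors made these counts with Cell Ranger 4.0.0, and per the submitters' processing notes the genome build was mm10. No source used here gives other settings. Barcodes of fewer than 1000 UMIs or 500 genes, or of more than 20% mitochondrial UMIs, were left out. The UMI sum of the Dll1-detected cells was set against the sum expected from Dll1-undetected cells, decile by decile of total UMIs, as log2 of (CPM + 1) over (CPM + 1). Intervals are exact (binomial or Poisson, 95%), and a level at 0 UMIs has a limit of 3 counts. Genes of 5 CPM or more were measured and 1.5-fold was the threshold. With 1 library per group there was no test across samples.

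Named genes were the 12 highest and the 12 lowest ratios at 20 CPM or more, every measured Notch gene, and the ends of each other list described. Cdh1, Cldn3, Krt14 and Hey1 fall outside that rule and were chosen after their values were seen. Dll1, the gate genes, mitochondrial and ribosomal genes and genes without a proper symbol were not named by ratio. The members and lists were chosen with earlier results of these data known.

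Tumor-gate cells were clustered without Dll1 (2000 variable genes, 30 principal components, 15 neighbours, Leiden resolutions 0.2, 0.4 and 0.8). The procedure was tested on simulated data. Alternatives changed the depth matching, scaling (TMM factors), filters, pseudocount, doublets, quality limits, member definition and cell state. Doublet scores came from scrublet in scanpy 1.11.5, and the alternative removed 8.89% of Dll1- and 8.47% of Dll1+ barcodes. Tools were Python 3.11.15, numpy 2.4.6, scipy 1.17.1, pandas 2.3.3, leidenalg 0.10.2, matplotlib 3.10.9, R 4.3.3 and edgeR 4.0.16 (TMM only). Of 32285 gene IDs, 99.6% were found in the GENCODE annotation used for positions.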

Additional observations from a re-analysis of the deposited data

Results flagged for a closer look

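Of 9011 genes measured in both tumors, 149 were 1.5-fold or more higher and 94 lower in Dll1-detected cells of the Dll1- tumor. In those of the Dll1+ tumor 121 were higher and 150 lower. Of the 149, 53 were also higher in the Dll1+ tumor and 6 were lower there. Of the 94, 14 were also lower in the Dll1+ tumor and 3 were higher there. Of the genes that went opposite ways, 6 belong to the gene lists and are described first. The difference between the tumors was not tested, since each is 1 library. Krt6a, a stress keratin, had log2 ratios of 1.48 in the Dll1- tumor and -2.03 in the Dll1+ tumor, and 5 cells held 94.0% of the members' Krt6a UMIs in the Dll1- tumor. Krt79, a keratin of hair canals, had 0.81 in the Dll1- tumor, with 59.1% of the members' UMIs in 5 cells, and -1.06 in the Dll1+ tumor. Fermt1, an integrin activator, had 0.89 in the Dll1- tumor and -1.01 in the Dll1+ tumor. Aldh1a3, a retinal dehydrogenase, had 0.87 in the Dll1- tumor and -0.64 in the Dll1+ tumor. In the Dll1- tumor 5 cells held 55.5% of its UMIs, and its ratio was 0.00029 without cells of 3 or more other-class marker UMIs. Muc15, a membrane mucin, had 0.60 in the Dll1- tumor and -0.65 in the Dll1+ tumor. Rgs5, a pericyte marker, had -1.43 in the Dll1- tumor and 0.66 in the Dll1+ tumor. The 3 genes outside the lists were AA467197, with 0.75 in the Dll1- tumor and -0.59 in the Dll1+ tumor, Ren1, with -1.14 in the Dll1- tumor and 0.89 in the Dll1+ tumor, and Cldn8, with -0.71 in the Dll1- tumor and 0.59 in the Dll1+ tumor.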

How the results depend on the processing

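No paired analysis was possible because each group is 1 library and no result comes from a test. The interferon list median stayed above 0 in all 17 alternatives, with 0.79 after thinning to 2000 UMIs, 0.85 without cells of 3 or more other-class marker UMIs and 0.46 with cells matched on cluster at resolution 0.8, added after the data were seen. The S phase median was -0.17 without depth matching, -0.12 matched on cluster and -0.13 matched on cluster at resolution 0.8. The G2 and M phase median was -0.068 without depth matching, 0.10 after thinning, 0.24 with 2 or more Dll1 UMIs, 0.026 matched on cluster and 0.059 matched at resolution 0.8. The dividing cluster is led by genes of division, so cluster matching takes up part of such a difference beforehand.

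The counts of genes past 1.5-fold, 160 higher and 104 lower in the Dll1- tumor, depended on most settings. Without depth matching 47 were lower. Thinning gave 641 higher and 775 lower, no filter 453 and 332, 20 CPM or more 66 and 27, a pseudocount of 10 CPM 62 and 18, no other-class cells (170 members) 335 and 269, and 2 or more Dll1 UMIs 547 and 524. Matching on cluster left 44 lower, and matching at resolution 0.8 left 97 higher and 47 lower. Of the called genes 60.6% were higher, against 75.8% without depth matching, 45.3% thinned, 71.0% at 20 CPM, 77.5% with a pseudocount of 10 CPM and 76.3% matched on cluster.

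In the Dll1+ tumor, 259 higher and 164 lower became 138 higher without depth matching, 167 and 295 thinned, 295 lower with no filter, 153 and 67 at 20 CPM, 92 and 51 with a pseudocount of 10 CPM, 459 and 350 without other-class cells, 424 and 386 with 2 or more Dll1 UMIs, 29 and 17 matched on cluster and 22 and 19 matched at resolution 0.8.

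Among named genes, Spc24 turned to 0.28 when thinned. Mgp turned to 0.49 without high doublet scores, 0.66 without other-class cells and 0.64 without the collagen-led cluster. Without other-class cells Col1a2 turned to -1.35 and Wfdc17 to -0.034. With 2 or more Dll1 UMIs Col1a2 turned to -0.51, Col1a1 to -0.43, Ccnb1 to 0.24 and Cdk1 to 0.054. The cause of these moves was not tested. The Dll1-detected share was 0.767% thinned to 2000 UMIs and 1.70% thinned to 5000 UMIs, and the highest share in a cluster of 150 or more cells was 9.21% at resolution 0.8, against 4.07% at 0.4. Most members rest on 1 Dll1 UMI, and at this depth a cell without one is not shown to lack Dll1 RNA.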

Other observations

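Genes of ion-transporting epithelial cells were also higher in the Dll1-detected cells of the Dll1- tumor. Of the genes given here, Foxi1, Atp6v1b1 and Clic6 lie below the level used for naming and Atp6v1c2 lies above it. All were picked after their values were seen. Foxi1, a transcription factor of acid-secreting kidney cells and airway ionocytes, had 104 UMIs in the 346 Dll1-detected cells against 32.9 expected, or 18.1 CPM and 5.73 CPM (log2 ratio 1.51, interval 1.35 to 1.96). It was found in 17.9% of the Dll1-detected and 4.84% of the matched cells. Atp6v1b1, a proton pump subunit of such cells, had 22.5 CPM in Dll1-detected and 8.19 CPM in Dll1-undetected cells (1.35), and Clic6, a chloride channel family member, 28.7 CPM and 5.62 CPM (2.17). The pump subunit Atp6v1c2 went the other way, with 106 CPM in Dll1-detected and 159 CPM in Dll1-undetected cells (-0.58). In the Dll1+ tumor the ratios were 1.14 for Foxi1, 1.09 for Atp6v1b1 and 1.02 for Clic6.

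Cells with UMIs of both Foxi1 and Atp6v1b1 were 113 of the tumor-gate cells of the Dll1- tumor (1.24%). Of these, 30 had a Dll1 UMI (26.5%, exact interval 18.7 to 35.7), against 229 of 8037 cells with neither gene (2.85%). Dll1 stood at 33.6 CPM in the cells with both (26.3 to 42.4, median 15403 UMIs) and at 2.69 CPM in those with neither (2.38 to 3.03, median 10834 UMIs). In the Dll1+ tumor the same levels were 76.9 CPM with both and 16.6 CPM with neither. The 30 cells held 2 UMIs of the 10 genes nearly restricted to the Dll1+ tumor. At the level of like Dll1-detected cells of that tumor, all their RNA would hold 512. Whether part of their RNA came from that tumor was not tested. Their interferon list stood at 4897 CPM, against 4876 CPM over the gate. In the Dll1+ tumor the Dll1-detected cells with both genes had 7293 CPM of that list, against 5923 CPM over its gate. In the Dll1- tumor high doublet scores were held by 6.67% of the 30 cells, 12.4% of the 113 and 8.38% of all tumor-gate cells.

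The interferon gene Ifnb1 itself had 4 UMIs in the Dll1-detected cells of the Dll1- tumor, against 55.4 expected, and was found in 0.867% of the Dll1-detected and 1.02% of the matched cells.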
